A study of Mus musculus with 39 samples.

Results

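The comparison described here asks what the loss of NT3 does to gene expression in TrkC+ sensory neurons when cell death through Bax is blocked on both sides. Its members are 4 of the 39 arrays of the series, chosen by their titles: 2 of TrkC+ neurons from mice lacking NT3 and Bax (NT3-/-Bax-/-, called NT3KO-BaxKO) and 2 of TrkC+ neurons from mice lacking Bax alone (Bax-/-, called BaxKO). All 4 came from mice of mixed 129/C57Bl6 background on the day of birth (P0) that also carried the TrkCGFP transgene, a bacterial artificial chromosome in which regulatory DNA of the TrkC gene drives GFP. Dorsal root ganglia (DRG) of levels L1 to L6 were pooled and dissociated, and cells with GFP were collected by fluorescence-activated sorting, on average 350 cells for each array. Cells without GFP from the same 2 genotypes (TrkC-, 2 arrays each) and TrkC+ cells of wildtype mice with the transgene (2 arrays) are given beside the comparison where they bear on a gene. The labels do not say whether the arrays of a group came from separate animals, but the sex-linked transcripts given below differed between the 2 arrays of each compared group, so these held cells of different animals. The p-values rest on the spread within groups, shared over the 16 arrays in 8 groups of the fit. Besides these, the fit held wildtype TrkC- cells and TrkC+ and TrkC- cells of mlcNT3 mice, whose skeletal muscle expresses surplus NT3 (2 arrays each).

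Neurotrophin-3 (NT3), made by muscle and other targets, binds the receptor tyrosine kinase TrkC on proprioceptors, the sensory neurons that report muscle stretch, and signals through the Ras-ERK and PI3K-Akt pathways. Without NT3 these neurons die in the embryo through the mitochondrial pathway, in which BH3-only proteins activate Bax. When Bax is missing too, the neurons stay alive, and their other responses to the lost signal can be measured.

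Each gene is represented by the brightest of the probe sets annotated to it alone, which gave 18193 genes, and values are linear RMA intensities, an arbitrary unit that sets 1 gene against itself across arrays and not against another gene. A gene was called when its limma p, adjusted after Benjamini and Hochberg, was under 0.05 in a fit over all 16 arrays of pooled lumbar P0 DRG. The wildtype TrkC- and mlcNT3 arrays of this fit served only to estimate the spread. The 2 BaxKO arrays correlated at 0.978 and the 2 NT3KO-BaxKO arrays at 0.978, and correlations between the groups lay between 0.935 and 0.960. In the other groups of the fit the 2 arrays correlated at 0.972 (NT3KO-BaxKO TrkC-) to 0.994 (wildtype TrkC+). The shared spread thus also came from groups tighter than the 2 compared. With 2 arrays a group, their number limits the precision. Ntf3 and Bax were not analysed here, so neither knockout was checked on its transcript. The probe sets of Etv1 carry the name of another gene too in the annotation used, and Etv1 was not analysed here for that reason. In each group replicate 1 was male-like and replicate 2 female-like by Eif2s3y (1199 and 11 in BaxKO, 1769 and 9.0 in NT3KO-BaxKO) and Xist (39.7 and 4611, 57.8 and 5407), so sex was balanced between the groups. Leaving out any 1 of the 4 arrays unbalances it.

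The sort could be checked on the transcripts of its target cells. Runx3, a transcription factor of proprioceptors, had values of 1321 and 1600 in BaxKO TrkC+ neurons and of 17.6 and 16.1 in BaxKO TrkC- cells. In NT3KO-BaxKO mice it had values of 593 and 892 in TrkC+ neurons and of 24.7 and 21.5 in TrkC- cells. Ntrk3, which encodes TrkC, had values of 1798 and 2355 in NT3KO-BaxKO TrkC+ neurons and of 543 and 570 in the TrkC- cells of these mice, against 115 and 171 in BaxKO TrkC- cells. TrkC+ and TrkC- arrays were thus far apart for both genes in each genotype. In pooled cells, fewer cells of a type and less RNA per cell cannot be told apart.

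A large part of the transcriptome of TrkC+ neurons differed between the 2 genotypes. Of 45037 probe sets, 8204 (18.2%) were called, 4074 higher and 4130 lower in NT3KO-BaxKO neurons. Over genes, 1618 (8.89%) were higher and 2278 (12.5%) were lower, and the median log2 difference of all genes was -0.02. Counts of called members of the gene lists below are to be read beside these shares, which also cover genes with low signals. In the fit of probe sets with a mean log2 value of at least 6, 3360 of 23557 were higher and 3864 lower. Of the 774 measured genes of the lists, 90 were called higher and 217 lower. The lists were chosen with earlier results known. A list above the shares of all genes is therefore not by itself an enrichment. Among genes, large changes were more often falls: 184 genes were higher by at least 4-fold and 457 were lower, and at 16-fold or more the counts were 15 and 52. Over probe sets the called counts, 4074 and 4130, were near even. The part of the choice of the brightest probe set over the 16 arrays in the excess of falls was not tested. The lowest and the highest arrays of the groups did not overlap for any of the 3896 called genes. The share over all genes is not given here. Neither this separation nor that described for single called genes below is therefore a finding. Without BaxKO replicate 1 the probe sets called were 5333, without NT3KO-BaxKO replicate 1 they were 5241, and a fit of the 4 arrays alone called 1871. The thresholds of the study were 2-fold or more with an unadjusted p up to 0.02. At these limma selected 5304 probe sets (11.8%), 2546 higher and 2758 lower, and a t-test of the 4 arrays, also named in the methods, selected 1228. For loss of NT3 the study itself used an ANOVA on proprioceptor-enriched probe sets against wildtype, leaving out those affected in Bax-/- mice. Neither count here is therefore a repeat of its result.

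**Figure D1:**
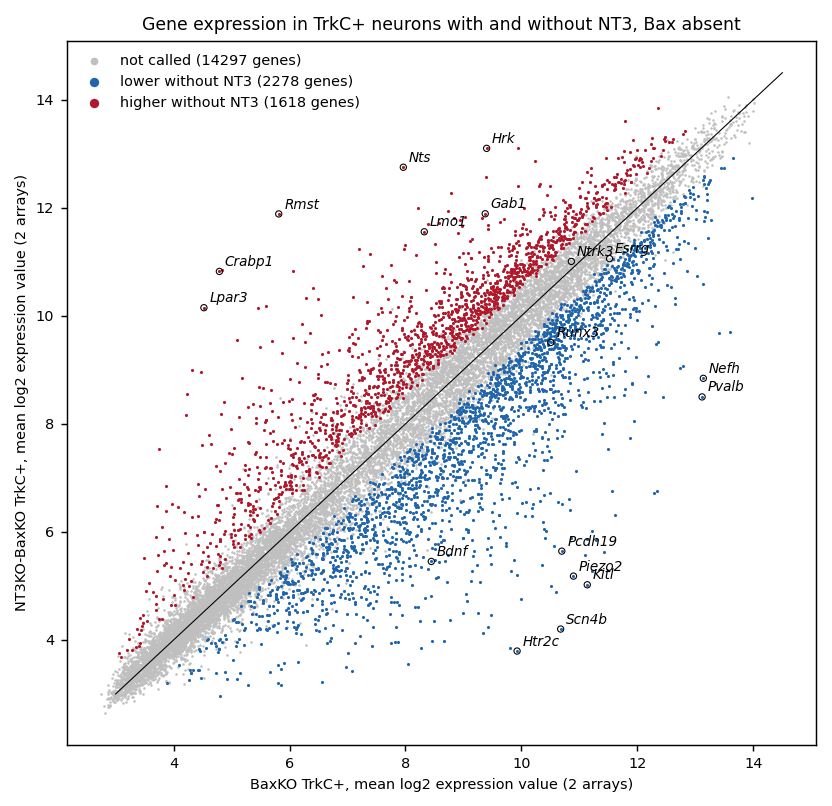
Mean log2 expression value of each of the 18193 genes in 2 BaxKO TrkC+ arrays (x axis) and 2 NT3KO-BaxKO TrkC+ arrays (y axis); blue and red points are genes called lower and higher without NT3, and the line marks equal values. Scn4b, Htr2c and Piezo2 lie far below the line, Crabp1, Rmst and Lpar3 far above it, and Ntrk3 on it.

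The 15 largest falls took genes from strong signals in BaxKO neurons to values of at most 128 in NT3KO-BaxKO neurons, apart from Vsnl1 with 297 in 1 array. Scn4b, a beta subunit of sodium channels, had values of 2254 and 1188 in BaxKO neurons and of 17.3 and 19.6 in NT3KO-BaxKO neurons. The log2 difference was -6.47 (SE 0.45, adjusted p = 4.82e-06). Htr2c, a serotonin receptor, had values of 924 and 1023 against 16 and 12 (log2 -6.13, SE 0.21, adjusted p = 3.19e-08). Piezo2, the mechanically gated channel that proprioceptors need to sense stretch, had values of 2194 and 1659 against 33.5 and 39.4 (log2 -5.72, SE 0.23, adjusted p = 1.24e-07). Values this low make the size of a fall uncertain: on the scale of log2(value + 16) the differences were -5.59 for Scn4b and -5.04 for Htr2c. Separation of the arrays was a condition for naming these largest changes and is not a finding.

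Secreted and signalling proteins were among the other large falls. Kitl, the ligand of the receptor Kit, went from 1947 and 2598 to 17.6 and 59.9 (log2 -6.11). Wnt7a, a secreted Wnt, went from 3177 and 1974 to 51.3 and 64.4 (log2 -5.45), and Lox, an enzyme that cross-links collagen, from 1711 and 1250 to 29.1 and 34.8 (log2 -5.52). Rgs4, which shortens G-protein signals, had values of 2055 and 4766 against 49.7 and 128 (log2 -5.29).

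Lynx1, a membrane-anchored modulator of nicotinic receptors, had values of 6310 and 4270 against 112 and 105 (log2 -5.58). Vsnl1, a neuronal calcium sensor, had values of 5251 and 4793 against 37.1 and 297 (log2 -5.58). Ptger4, a prostaglandin receptor, had values of 1786 and 2830 against 64.2 and 53.8 (log2 -5.26). Mctp2, Lcp1, Dock10 and Ppm1j fell by 5.94, 5.79, 5.71 and 5.54 on the log2 scale. Reg3b, a secreted lectin, was uneven between the BaxKO arrays: its values were 3522 and 226 in BaxKO and 16.3 and 12.8 in NT3KO-BaxKO neurons (log2 -5.95, adjusted p = 0.000511), its log2 difference was -3.97 without BaxKO replicate 1, and in the fit of 4 arrays its adjusted p was 0.0627.

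The 15 largest rises started from low signals. Rmst, a long non-coding RNA of neural development, had values of 25.2 and 126 in BaxKO and of 3390 and 4227 in NT3KO-BaxKO neurons (log2 6.07, SE 0.75, adjusted p = 0.000195). Crabp1, which binds retinoic acid in the cytoplasm, had values of 26.2 and 29.2 against 1600 and 2047 (log2 6.03, SE 0.40, adjusted p = 3.3e-06). Shisa9, an auxiliary protein of AMPA receptors, had values of 21.1 and 38.8 against 1663 and 2057 (log2 6.01). Signals were low in both BaxKO arrays, unevenly so for Rmst, and bright in both NT3KO-BaxKO arrays.

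Lpar3, a receptor for lysophosphatidic acid, went from 18.3 and 28.9 to 890 and 1452 (log2 5.63). Nts, the precursor of the neuropeptide neurotensin, had values of 147 and 423 in BaxKO and of 8887 and 5341 in NT3KO-BaxKO neurons (log2 4.79, adjusted p = 4.2e-05). Slc7a3, a transporter of cationic amino acids, went from 49.6 and 89.1 to 2055 and 1596 (log2 4.77), and Hhip, which binds hedgehog proteins, from 26.2 and 15.1 to 510 and 518 (log2 4.69). Pkd2l1, Anxa1, Exoc3l4, Ppp1r17, Asb4, Nell1, Trim66 and the Eph receptor Ephb1 rose by 4.04 to 4.69 on the log2 scale. Of these, Nell1 was uneven between the NT3KO-BaxKO arrays, with values of 655 and 3239.

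**Figure D2:**
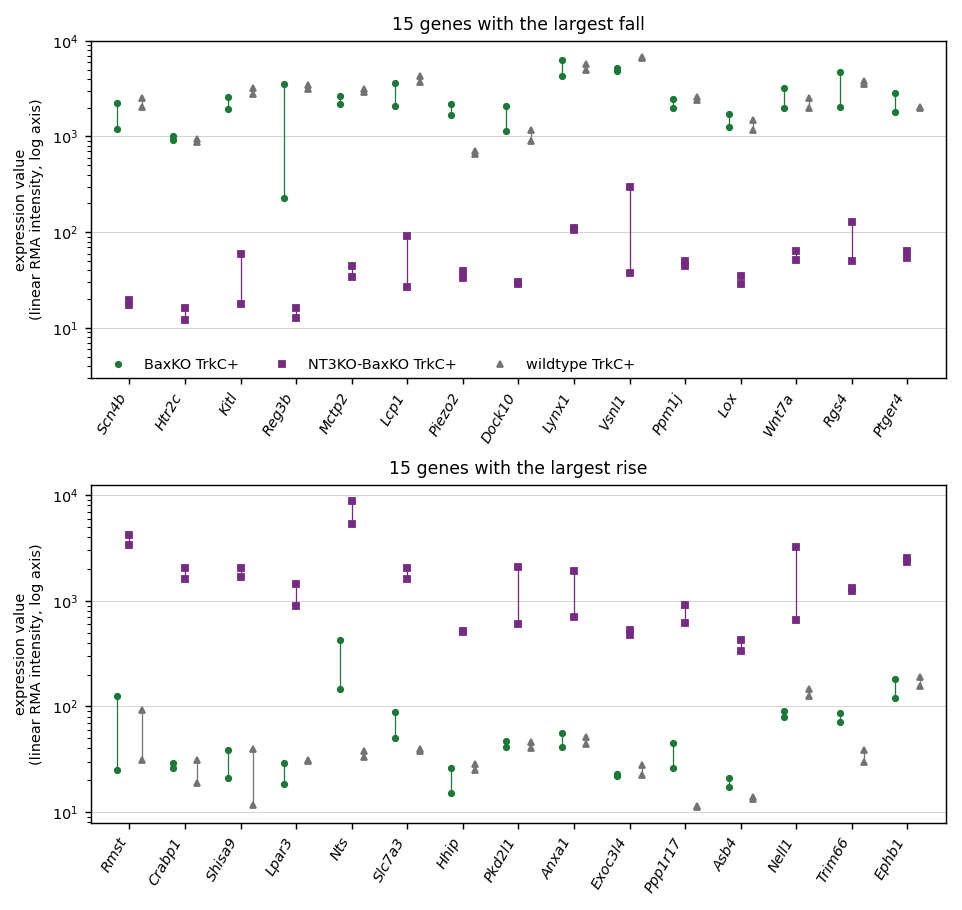
Expression value (linear RMA intensity, log axis) in each array of the 15 genes with the largest fall (top) and the 15 with the largest rise (bottom) in NT3KO-BaxKO against BaxKO TrkC+ neurons; circles are BaxKO, squares NT3KO-BaxKO and triangles wildtype arrays, 2 each. Squares sit far from circles in every column, while Reg3b shows a wide gap between the 2 BaxKO circles.

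The proprioceptor markers did not move as a block. Of 14 measured, 5 were lower and 3 were higher, with a median log2 difference of -0.16. Pvalb, which encodes the calcium buffer parvalbumin, had values of 9261 and 8509 in BaxKO and of 156 and 838 in NT3KO-BaxKO neurons. The groups were at least 10-fold apart, and the log2 difference was -4.62 (SE 0.55, adjusted p = 0.000159). Slc17a7, the vesicular glutamate transporter of proprioceptor terminals, went from 118 and 92.5 to 30.1 and 26.7 (log2 -1.88, adjusted p = 0.000338). Runx3 had a log2 difference of -0.999 (SE 0.29, adjusted p = 0.0303), which missed the threshold in some settings (adjusted p up to 0.217).

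Ntrk3 was not called: its values were 2052 and 1685 in BaxKO and 1798 and 2355 in NT3KO-BaxKO neurons (log2 0.15, SE 0.31, adjusted p = 0.813). The arrays of the 2 groups overlapped, and of its 8 probe sets 2 were higher and 0 lower. Esrrg, an estrogen-related receptor, had values of 3084 and 2795 against 1935 and 2350 (log2 -0.46, adjusted p = 0.473). Crtac1 and Fxyd7 were lower (log2 -1.89 and -1.29), and Heg1, Cdh13 and Vstm2b were higher (log2 2.11, 0.87 and 0.79). Only Pvalb and Slc17a7 were called under every alternative. Without BaxKO replicate 1 the list counted 2 lower and 1 higher, and without NT3KO-BaxKO replicate 1 it counted 3 lower and 1 higher. The summed level of the list was 20180 to 21960 in BaxKO and 11940 to 14340 in NT3KO-BaxKO neurons, of which Pvalb alone made up 9261 and 8509, and 156 and 838.

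Of the neurotrophins and their receptors, 2 of 6 measured genes were called, both lower, and both were called under every alternative. Bdnf, a neurotrophin that DRG neurons make themselves, had values of 376 and 323 in BaxKO and of 33.2 and 57.8 in NT3KO-BaxKO neurons (log2 -2.99, SE 0.31, adjusted p = 6.75e-05). Ngfr, the low-affinity neurotrophin receptor, had values of 3108 and 3680 against 559 and 962 (log2 -2.21, SE 0.39, adjusted p = 0.0022). The arrays were clearly separated for each. Ntrk2, the receptor TrkB, was uneven between the BaxKO arrays and not called (44.2 and 316 against 470 and 283, adjusted p = 0.146), although without BaxKO replicate 2 it was (adjusted p = 0.00261). Of the 5 receptors of the GDNF family limma called 0, also 0 at an unadjusted p under 0.05, and 1 lower without BaxKO replicate 1.

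Within the cascades below TrkC, shares of called genes lay near those of all genes, 12.5% lower and 8.89% higher. Of 28 adaptors and Ras-ERK genes, 4 (14.3%) were lower and 3 (10.7%) were higher. Shc4, an adaptor that binds Trk receptors, went from 397 and 344 to 26 and 48.1 (log2 -3.39, adjusted p = 0.00024), whereas Gab1, a docking protein for PI3K and Shp phosphatases, went from 624 and 706 to 3623 and 3971 (log2 2.51, adjusted p = 4.45e-05). These were the 2 members called under every alternative. Map2k1, the ERK kinase MEK, had a log2 difference of -0.94 (adjusted p = 0.00922). Of 19 genes of the PI3K-Akt pathway 3 (15.8%) were lower and 2 (10.5%) higher, and only Pik3r1, the regulatory subunit of PI3K, was called under every alternative (log2 1.44). Without NT3KO-BaxKO replicate 1 the Ras-ERK genes counted 2 lower and the PI3K-Akt genes 0 lower and 1 higher. The PI3K-Akt genes also counted 0 lower without BaxKO replicate 1, and without BaxKO replicate 2 each list had 1 higher.

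The genes that ERK switches on to restrain itself were lower. Of 11 measured feedback inhibitors, Sprouty and Spred proteins and ERK phosphatases of the Dusp family, 9 were lower, 0 were higher and all 11 had negative log2 differences, with a median of -1.24. Spry2 went from 1493 and 1114 to 384 and 228 (log2 -2.12, SE 0.30, adjusted p = 0.000449). Dusp6, the cytoplasmic ERK phosphatase, went from 121 and 201 to 17.8 and 54.1 (log2 -2.33, SE 0.51, adjusted p = 0.00768). Spred1, which blocks Ras activation, went from 1694 and 1637 to 717 and 695 (log2 -1.24), and 6 of its 8 probe sets were lower.

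For these 3 genes every NT3KO-BaxKO array lay below every BaxKO array. Spry1, Spry3, Spry4, Spred2, Dusp4 and Dusp5 were the other genes called, with log2 differences between -1.80 and -0.84. Spred3 and Dusp7 were not called (log2 -0.29 and -0.23). Only Spry2 and Spred1 were called under every alternative, and without NT3KO-BaxKO replicate 1 the list counted 5 lower and in the fit of 4 arrays 2.

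Transcription factors and targets induced by ERK were lower in 8 of 24 measured genes and higher in 1, with a median of -0.21. Vgf, a secreted precursor induced by neurotrophins, went from 516 and 600 to 89.1 and 110 (log2 -2.49, adjusted p = 2.25e-05). Etv5, an ETS factor of the Pea3 family, went from 232 and 193 to 57.8 and 46.0 (log2 -2.03, adjusted p = 0.00077). Phlda1 and Fosl2 fell by 2.33 and 1.61 on the log2 scale, and these 4 genes were called under every alternative. Klf4 was the gene that was higher (log2 1.86, adjusted p = 0.0309), with no call without BaxKO replicate 1 or either NT3KO-BaxKO array. Without BaxKO replicate 2 or NT3KO-BaxKO replicate 1 the higher genes were 2. The list counted 5 lower without BaxKO replicate 1 or NT3KO-BaxKO replicate 1.

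**Figure D3:**
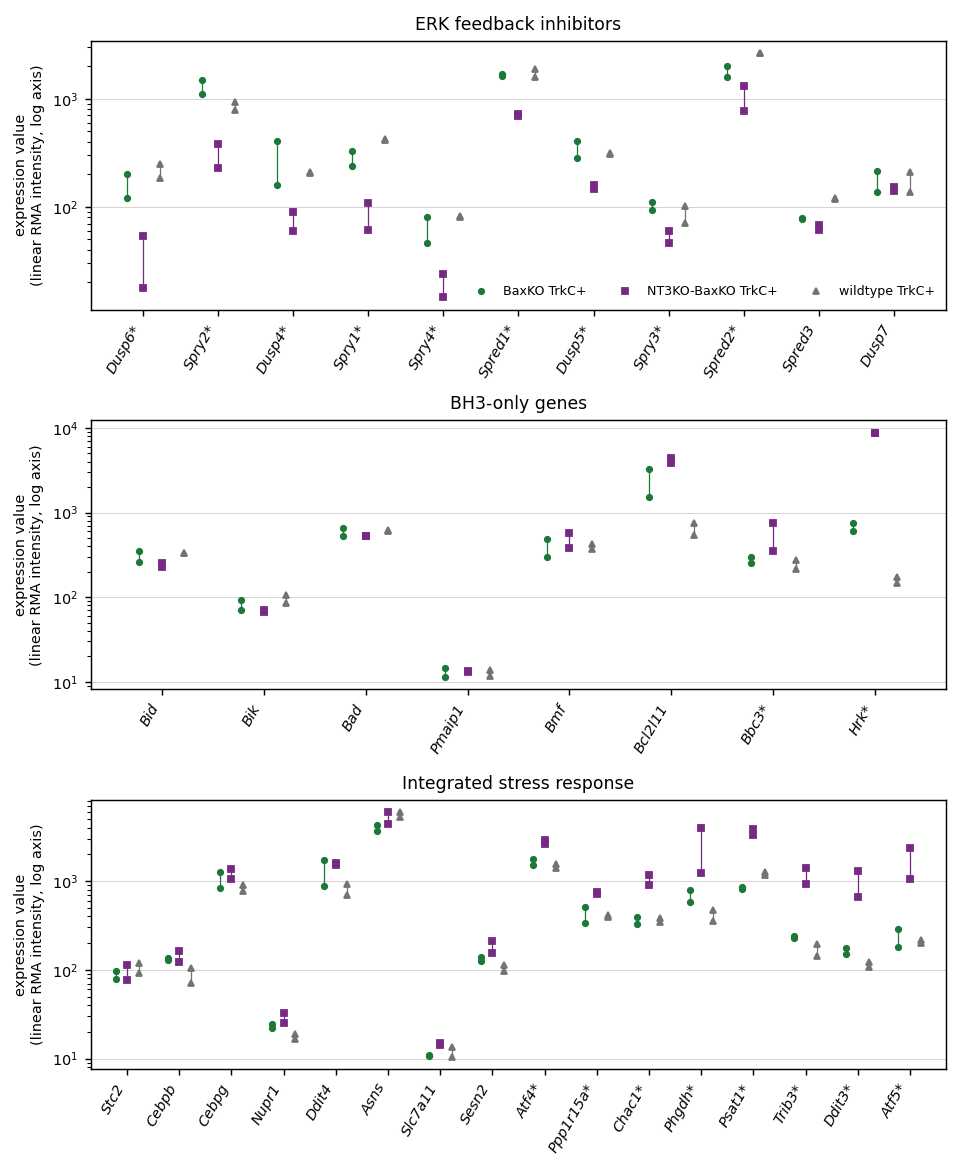
Expression value (linear RMA intensity, log axis) in each TrkC+ array of the measured ERK feedback inhibitors (top), BH3-only genes (middle) and genes of the integrated stress response (bottom), ordered by log2 difference within each panel; circles are BaxKO, squares NT3KO-BaxKO and triangles wildtype, 2 arrays each, and an asterisk marks a called gene. Feedback inhibitors sit lower without NT3, and Hrk stands out among the BH3-only genes with values of 8733 and 8825.

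Among the BH3-only genes, which act upstream of Bax, Hrk was by far the largest change. Its values were 598 and 763 in BaxKO neurons and 8733 and 8825 in NT3KO-BaxKO neurons (log2 3.70, SE 0.28, adjusted p = 7.82e-06), and both of its probe sets were higher. In wildtype TrkC+ neurons its values were 149 and 172. Hrk was therefore lowest in wildtype, intermediate in BaxKO and highest in NT3KO-BaxKO neurons, with no overlap between arrays. Bbc3, also known as Puma, passed the threshold narrowly (256 and 300 against 756 and 347, log2 0.89, adjusted p = 0.0448) and not without BaxKO replicate 1 or NT3KO-BaxKO replicate 1, nor with the replicate block (adjusted p = 0.0504). Bcl2l11, also known as Bim, had values of 1511 and 3305 against 3820 and 4357 and was not called (log2 0.87, adjusted p = 0.136), although 3 of its 5 probe sets were higher. Of the 8 genes of this class 2 were called, with a median log2 difference of 0.18.

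Of the other BCL2 family and caspase genes, 5 of 15 were lower and 2 were higher. The survival factor Bcl2 went from 2600 and 2390 to 651 and 1000 (log2 -1.63, adjusted p = 0.0025), and Bcl2l2 from 2373 and 1675 to 853 and 834 (log2 -1.24, adjusted p = 0.00145). Casp2, an initiator caspase, went from 325 and 382 to 791 and 882 (log2 1.25, adjusted p = 0.00337). Bcl2 and Casp2 were called under every alternative. The count of higher genes was 1 without BaxKO replicate 1 or NT3KO-BaxKO replicate 1, and the fit of 4 arrays called 1 lower and 1 higher.

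Genes of the stress kinase pathway that runs from DLK to JNK were higher in 4 of 16 (25%) and lower in 1 (6.25%). Over all genes the shares were 8.89% and 12.5%. The median log2 difference of the list was -0.03, with 9 negative and 7 positive, so the pathway did not move as a whole. Dusp16, a JNK phosphatase, went from 563 and 562 to 1974 and 2326 (log2 1.93, adjusted p = 0.000863), and was called under every alternative. Jun, the main transcription factor target of JNK, had values of 2346 and 3356 against 7517 and 7953 (log2 1.46, adjusted p = 0.00665). Dusp8 and Dusp10, phosphatases of the same family as Dusp16, rose by 0.97 and 1.58 on the log2 scale. The 1 lower gene was Map2k4, a JNK kinase (log2 -0.86), which was not called without BaxKO replicate 2 or NT3KO-BaxKO replicate 1. Without BaxKO replicate 2 the lower genes were 2, and without NT3KO-BaxKO replicate 1 there were 0.

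Genes known from nerve injury rose and fell in similar numbers, 6 (27.3%) and 5 (22.7%) of 22, beside 8.89% and 12.5% of all genes. Atf3, the classical injury factor, went from 133 and 195 to 1021 and 906 (log2 2.58, adjusted p = 0.00204), and Flrt3, an adhesion protein, from 87.2 and 215 to 1277 and 1317 (log2 3.24, adjusted p = 0.000107). Stmn4, a regulator of microtubules, rose by 1.28. Socs3, an inhibitor of cytokine signalling, went the other way, from 654 and 1000 to 209 and 86.5 (log2 -2.59, adjusted p = 0.000504), as did the neuropeptide genes Crh (log2 -2.68, or -1.58 with 16 added to each value) and Gal (log2 -1.89). Vip, a further neuropeptide, had values of 1258 and 103 in BaxKO and of 21.4 and 19.5 in NT3KO-BaxKO neurons, a fall of 4.14 that became 2.33 without BaxKO replicate 1 and lost its call in the fit of 4 arrays (adjusted p = 0.112). The lower genes were 3 without BaxKO replicate 1 or NT3KO-BaxKO replicate 1.

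The integrated stress response, in which the transcription factor Atf4 and its partners induce amino acid and stress genes, was higher in 8 of 16 genes and lower in 0. All 16 had positive log2 differences, with a median of 0.61. Atf4 had values of 1758 and 1527 against 2904 and 2623 (log2 0.75, adjusted p = 0.00771). Psat1, of serine synthesis, went from 850 and 814 to 3848 and 3271 (log2 2.09, adjusted p = 1.69e-05). Ddit3, the stress factor Chop, went from 175 and 150 to 1310 and 662 (log2 2.52, adjusted p = 0.000142). Each NT3KO-BaxKO array was above both BaxKO arrays.

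Atf5, the pseudokinase gene Trib3 and Chac1, which degrades glutathione, rose by 2.79, 2.30 and 1.51. These 3 together with Psat1 and Ddit3 were the 5 members called under every alternative. Without NT3KO-BaxKO replicate 1 and in the fit of 4 arrays the list counted 5 higher. In TrkC- cells 11 of the 16 genes were higher in NT3KO-BaxKO than in BaxKO mice.

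Atf4 acts with C/EBP factors through a composite element, written TGATGNAA and searched on both strands in the 250 bases before each gene start. It was present in 4 of 16 members (25%) and in 1056 of 27025 genes of the promoter table (3.91%). Of the 8 called members, 1 held it, Chac1. The stretches around the matches of Chac1, which rose, and of the cystine transporter gene Slc7a11, which was not called, are shown from the RefSeq annotation of build GRCm38.p6, 5′ to 3′ on the strand of the gene, with the match in capitals. The first lies at chr2:119351009-119351096 on the plus strand, with the element 193 bases before the start and on the strand opposite to the gene. The second lies at chr3:50443614-50443719 on the minus strand and holds the element on each strand. A match is a description of these letters and not a binding site.
Chac1: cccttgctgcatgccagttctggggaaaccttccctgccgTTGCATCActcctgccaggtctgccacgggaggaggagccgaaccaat
Slc7a11: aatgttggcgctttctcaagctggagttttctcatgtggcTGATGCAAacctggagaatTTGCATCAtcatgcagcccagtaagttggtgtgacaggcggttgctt

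Ion channel families differed in how many of their genes were lower. Of 10 sodium channel genes, 4 were lower and 0 were higher, with a median of -1.26. In TrkC- cells of the same genotypes 5 were lower and 0 higher (median -1.66), and the change differed between the populations for 1. Scn1a, a channel of large myelinated neurons, went from 3430 and 4272 to 229 and 822 (log2 -3.14, adjusted p = 0.000496). Scn8a, the channel of nodes of Ranvier, went from 3408 and 2838 to 814 and 1377 (log2 -1.55, adjusted p = 0.000969). Scn2b went from 3155 and 2316 to 768 and 709 (log2 -1.87) and, with Scn4b, was called under every alternative, while Scn2a, Scn3a, Scn9a, Scn10a, Scn11a and Scn3b were not called.

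Of 35 potassium channel genes, 19 were lower and 2 were higher, with a median of -1.24. In TrkC- cells of the same genotypes 19 were lower and 1 higher (median -1.12), and the change differed between the populations for 9. Kcnk1, a leak channel, went from 1930 and 1065 to 145 and 76.2 (log2 -3.77, adjusted p = 4.7e-05). Kcna1, a low-threshold channel of myelinated axons, went from 3461 and 3120 to 943 and 376 (log2 -2.46, adjusted p = 0.00207). It lies among the 25 genes on either side of the mutated Ntf3 locus and was also lower in TrkC- cells (log2 -1.47, adjusted p = 0.0296). Kcns1, a modifier subunit, went from 359 and 166 to 32.6 and 36.2 (log2 -2.83, adjusted p = 5.48e-05). The groups did not overlap for any of these 3 genes.

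The accessory subunits Kcnip1 and Kcnip4 moved in opposite directions. Kcnip1 had values of 49.7 and 69.2 in BaxKO and of 746 and 540 in NT3KO-BaxKO neurons (log2 3.44), whereas Kcnip4 had values of 426 and 244 against 27.8 and 27.2 (log2 -3.55). Kcnk2, another leak channel, was the other gene that was higher (log2 2.13). Of the 21 called potassium channel genes, 13 were called under every alternative, and without BaxKO replicate 1 the lower genes were 11.

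Of 17 calcium channel genes 4 were lower and 2 higher, with a median of 0.28 and positive log2 differences in 12. Cacna1e, the R-type channel, went from 192 and 125 to 2433 and 1540 (log2 3.65, adjusted p = 9.43e-06), while the auxiliary subunit Cacna2d3 went from 365 and 448 to 11.6 and 21.2 (log2 -4.69, adjusted p = 2.01e-05). Without BaxKO replicate 2 the higher genes of this list were 4. Hcn2 and Hcn3, pacemaker channels, fell by 0.51 and 0.76 on the log2 scale, and without either BaxKO array or NT3KO-BaxKO replicate 1 a single one of them was called. Of 11 mechanotransduction genes 4 were lower, Piezo2, Asic2, Tmem150c and Asic1, and Tmc1 was higher at values under 41 (log2 0.61), with no call without BaxKO replicate 1. The higher genes of this list were 2 without BaxKO replicate 2.

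Receptors for transmitters and peptides changed in both directions, within families as well as between them. Of 15 GABA-A and glycine receptor subunits, 4 were higher and 3 were lower. Gabrg1 had values of 746 and 677 in BaxKO and of 18.7 and 26.3 in NT3KO-BaxKO neurons (log2 -5.00, SE 0.40, adjusted p = 1.09e-05), and Gabra2 went from 367 and 138 to 10.8 and 22.7 (log2 -3.85). Gabrb2 went from 186 and 148 to 726 and 1260 (log2 2.53), and Glra2, a glycine receptor subunit, from 328 and 551 to 4479 and 3415 (log2 3.20, adjusted p = 0.00371). Gabra3 and Gabrg3 were also higher (log2 1.94 and 1.39), and Glrb was lower (log2 -1.61).

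Among 20 glutamate receptor genes, 5 were lower and 3 were higher. Grm3, a metabotropic receptor, went from 1037 and 1660 to 47.2 and 37.3 (log2 -4.97, adjusted p = 7.11e-05). Gria1, an AMPA receptor subunit, went from 131 and 150 to 1455 and 517 (log2 2.63, adjusted p = 0.000507), while Gria4 had a log2 difference of -1.53. Grin3a, an NMDA receptor subunit, went from 196 and 217 to 946 and 770 (log2 2.05, adjusted p = 1.44e-05). Without BaxKO replicate 1 the lower genes were 3, and without NT3KO-BaxKO replicate 1 the higher genes were 5.

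Of 31 nicotinic, serotonin and peptide receptor genes with their modulators, 13 were lower and 2 were higher, with a median of -0.55. In TrkC- cells of the same genotypes 15 were lower and 3 higher (median -1.02), and the change differed between the populations for 11. Besides Htr2c, the serotonin receptor Htr1b went from 1875 and 1816 to 38.8 and 89.8 (log2 -4.97, adjusted p = 1.29e-05) and Htr1d from 1412 and 1720 to 219 and 207 (log2 -2.87). Pth1r, the receptor of parathyroid hormone, went from 3383 and 2115 to 266 and 191 (log2 -3.57, adjusted p = 0.000128). The somatostatin receptor Sstr2 and the opioid receptor Oprm1 were the genes that were higher (log2 2.16 and 2.51). In this list 8 genes were called under every alternative, and without BaxKO replicate 1 the lower genes were 8. Without NT3KO-BaxKO replicate 2 the higher genes were 4.

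Genes of transmitter release were lower in 11 of 37 and higher in 6, with a median of -0.37. In TrkC- cells of the same genotypes 22 were lower and 1 higher (median -0.76), and the change differed between the populations for 6. Rab3c, a small GTPase of synaptic vesicles, went from 7787 and 6409 to 574 and 500 (log2 -3.72, adjusted p = 1.59e-05). Syt2, a fast calcium sensor, went from 2959 and 2264 to 408 and 615 (log2 -2.37, adjusted p = 2.54e-05), and Vamp1, a vesicle fusion protein, from 3482 and 2378 to 349 and 637 (log2 -2.61). Vamp1 is another of the genes near Ntf3 and was also lower in TrkC- cells (log2 -1.81, adjusted p = 0.00292). Syt7 and Syn3 went up, from 1062 and 1156 to 2435 and 2148 (log2 1.05) and from 553 and 776 to 1686 and 2830 (log2 1.74). Without NT3KO-BaxKO replicate 1 the lower genes were 7, and without NT3KO-BaxKO replicate 2 the higher ones were 3.

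The heavy neurofilament was the largest change among 23 genes of neurofilaments and the axonal cytoskeleton, of which 7 were lower and 0 higher. In TrkC- cells of the same genotypes 10 of the 23 were lower and 0 higher, and the change differed between the populations for 3. Nefh, which marks large myelinated neurons, had values of 9667 and 8398 in BaxKO and of 392 and 538 in NT3KO-BaxKO neurons (log2 -4.29, SE 0.61, adjusted p = 0.000538). Tuba4a, an alpha-tubulin, went from 12560 and 12220 to 495 and 1400 (log2 -3.90, adjusted p = 3.31e-05). Map1a fell by 1.86 and Tuba8 by 3.16 on the log2 scale, and Ina, Prph and Tubb4a by 0.70 to 1.04. Without NT3KO-BaxKO replicate 1 the list counted 4 lower.

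Calcium-binding proteins were lower in 8 of 16 genes and higher in 0, with a median of -1.04. In TrkC- cells of the same genotypes 7 were lower and 1 higher (median -0.84), and the change differed between the populations for 6. Beside Pvalb and Vsnl1, S100b had values of 1922 and 1763 against 86.4 and 82.5 (log2 -4.45, adjusted p = 1.47e-06), and S100a6 of 286 and 335 against 15.1 and 13.8 (log2 -4.42, adjusted p = 3.05e-05). These 4 were separated by at least 10-fold between the groups. S100a10 fell by 1.21 and was, with them, called under every alternative. The list counted 5 lower when BaxKO replicate 1 was left out.

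Guidance genes gave some of the clearest opposite pairs. Of 31 semaphorin, plexin and neuropilin genes, 9 were lower and 6 higher. Sema3a, a repellent ligand, went from 960 and 582 to 75.4 and 60.8 (log2 -3.47, adjusted p = 4.44e-05), whereas its relative Sema3c went from 420 and 465 to 5364 and 4600 (log2 3.49, adjusted p = 2.75e-06). Sema7a and the receptor Plxnd1 were lower (log2 -3.04 and -2.81) and Plxnb2 was higher (log2 1.56). The higher genes were 3 when BaxKO replicate 1 was left out.

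Of 31 netrin, Slit and Eph genes 12 were lower and 4 higher, with a median of -0.23. Epha4, an ephrin receptor, went from 492 and 520 to 18.1 and 28.0 (log2 -4.49, adjusted p = 9.6e-05), while Ephb1 went from 121 and 180 to 2520 and 2340 (log2 4.04, adjusted p = 1.08e-06). Slit2, a repellent for axons, went from 3940 and 5481 to 262 and 851 (log2 -3.30, adjusted p = 0.000266), and the netrin receptor Unc5b from 551 and 701 to 76.6 and 102 (log2 -2.81). The ephrins split as well: Efnb2 and Efna5 fell by 2.14 and 2.24, and Efnb3 rose by 2.44. In this list 9 genes were called under every alternative, and without BaxKO replicate 1 the higher genes were 2.

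Among 32 cadherins and contactins 8 were lower and 4 higher. Pcdh19, a protocadherin, had values of 1748 and 1574 in BaxKO and of 48.8 and 51.2 in NT3KO-BaxKO neurons (log2 -5.05, SE 0.16, adjusted p = 3.01e-08). Cntn2, an axonal adhesion protein, fell by 1.83 and Cdh9 by 2.54, whereas Cntnap4 and Pcdh9 rose by 1.18 and 0.95. The counts were 5 lower and 2 higher when BaxKO replicate 1 was left out, and 2 higher without BaxKO replicate 2 or NT3KO-BaxKO replicate 1.

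Transcription factors of sensory neurons were higher in 7 of 30 and lower in 5. Lmo1, a LIM-only cofactor, went from 345 and 298 to 3465 and 2616 (log2 3.23, adjusted p = 2.01e-05), while Lmo2 went from 1468 and 1126 to 93.0 and 96.2 (log2 -3.76, adjusted p = 8.26e-06). Ldb2, which binds LIM proteins, went from 221 and 381 to 2163 and 2322 (log2 2.95), and Insm1, a zinc finger factor of immature neurons, from 94.5 and 94.8 to 657 and 595 (log2 2.72). The groups did not overlap for any of these.

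Maf, a factor of mechanoreceptors, went from 1022 and 1495 to 274 and 290 (log2 -2.13, adjusted p = 0.00424), and Myb from 388 and 248 to 61.8 and 27.2 (log2 -2.92, adjusted p = 0.000112). Pbx3, Meis1, Nova1 and Ldb1 rose by 1.81, 2.59, 1.64 and 0.74, and Prrxl1 and Isl1 fell by 2.21 and 0.67. Of the 12 called genes 7 were called under every alternative.

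Of 7 estrogen-related receptors and coactivators of mitochondrial genes, 4 were lower and 1 was higher. Ppargc1b went from 988 and 907 to 110 and 132 (log2 -2.97, adjusted p = 0.00122) and was the 1 member called under every alternative. Esrra, Ppargc1a and Pprc1 fell by 1.18, 1.19 and 0.86, and Tfam, a mitochondrial transcription factor, rose by 0.66. The list counted 1 lower without BaxKO replicate 1 and 2 without NT3KO-BaxKO replicate 1, and 0 higher without either, or 2 higher without BaxKO replicate 2.

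Smaller families of signals held single large changes. Among heparan sulfate enzymes 22.2% were lower and 11.1% higher, and among neuropeptide genes 20% and 5%. Over all genes these shares were 12.5% and 8.89%. Of 17 retinoid genes 4 were higher, Crabp1, Rxra (log2 2.13), Rarb and Rxrb, and Rxrg was lower (log2 -1.50), and the counts were 2 and 0 without NT3KO-BaxKO replicate 1, 3 and 0 without BaxKO replicate 1, and 2 and 1 without BaxKO replicate 2. In the insulin-like growth factor axis, Igf1 went from 811 and 822 to 195 and 262 (log2 -1.85) and Irs4, a receptor substrate, from 40.5 and 41.8 to 191 and 574 (log2 3.01), with 3 lower and 2 higher of 16, and 1 lower without NT3KO-BaxKO replicate 1. Among 18 heparan sulfate enzymes 4 were lower, with Ndst4 at 294 and 295 against 54.8 and 68.9 (log2 -2.26, adjusted p = 5.88e-05), and 2 were higher, or 1 without NT3KO-BaxKO replicate 2. Of 20 neuropeptide genes 4 were lower and only Nts was higher, or 2 without NT3KO-BaxKO replicate 2. Pcsk1, which processes prohormones, was among the lower ones (log2 -2.44).

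The remaining genes of interest to the study fell outside these families. Gjd2, a neuronal connexin, went from 788 and 890 to 68.4 and 67.8 (log2 -3.62, adjusted p = 4.8e-05), and Crim1, a membrane protein, from 322 and 409 to 52.3 and 38.0 (log2 -3.02). Gas6, a ligand of receptor tyrosine kinases, and the tachykinin receptor Tacr3 fell by 1.86 and 3.17, and the adjusted p of Tacr3 reached 0.116 in the alternatives. Psd2, which activates small GTPases, and the ATP receptor P2rx1 rose by 1.61 and 1.36. Meis2 was not called (log2 0.60, adjusted p = 0.175), although 2 of its 4 probe sets were higher.

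In glycolysis, oxidative phosphorylation and sterol synthesis the number of genes called depended on single arrays, while Aldoc, Idi1 and Insig1 were called with each array left out. Of 17 glycolysis genes 12 were lower and 0 higher, with a median of -0.73 and negative log2 differences in all 17. Aldoc, the neural aldolase, went from 4402 and 3703 to 433 and 852 (log2 -2.73, adjusted p = 0.000541), and Ldhb, a lactate dehydrogenase subunit, from 8199 and 6928 to 2808 and 2434 (log2 -1.53, adjusted p = 0.000108). The glycolysis genes called were 4 without BaxKO replicate 1 or NT3KO-BaxKO replicate 1.

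Of 39 genes of oxidative phosphorylation 15 were lower, with a median of -0.48, and 0 were higher. Without BaxKO replicate 1 a single one was called, without NT3KO-BaxKO replicate 1 there were 3 and without NT3KO-BaxKO replicate 2 there were 8. The largest of these falls was that of Ndufa8, a complex I subunit, from 4332 and 3477 to 2067 and 2092 (log2 -0.90).

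Among the 18 sterol synthesis genes 10 were lower and 0 higher, with a median of -0.75. Idi1, an isomerase of the pathway, went from 3040 and 2890 to 903 and 935 (log2 -1.69, adjusted p = 0.000454). Insig1, its feedback regulator, went from 629 and 587 to 226 and 164 (log2 -1.66, adjusted p = 0.000253), and in wildtype neurons its values were 336 and 217. Sterol genes were on the higher side in BaxKO against wildtype TrkC+ neurons, with a median of 0.51 and 2 of the 18 called higher, in a comparison that shares the BaxKO arrays. Without BaxKO replicate 1 the list counted 5 lower and without NT3KO-BaxKO replicate 1 it counted 4. Beside these lists, 6 of 11 reference genes that are often taken as constant were called, 4 lower and 2 higher, with a median of -0.37. Without either BaxKO array or NT3KO-BaxKO replicate 1 a single reference gene was lower, without NT3KO-BaxKO replicate 2 there were 2, and without BaxKO replicate 2 or NT3KO-BaxKO replicate 1 there was 1 higher.

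**Figure D4:**
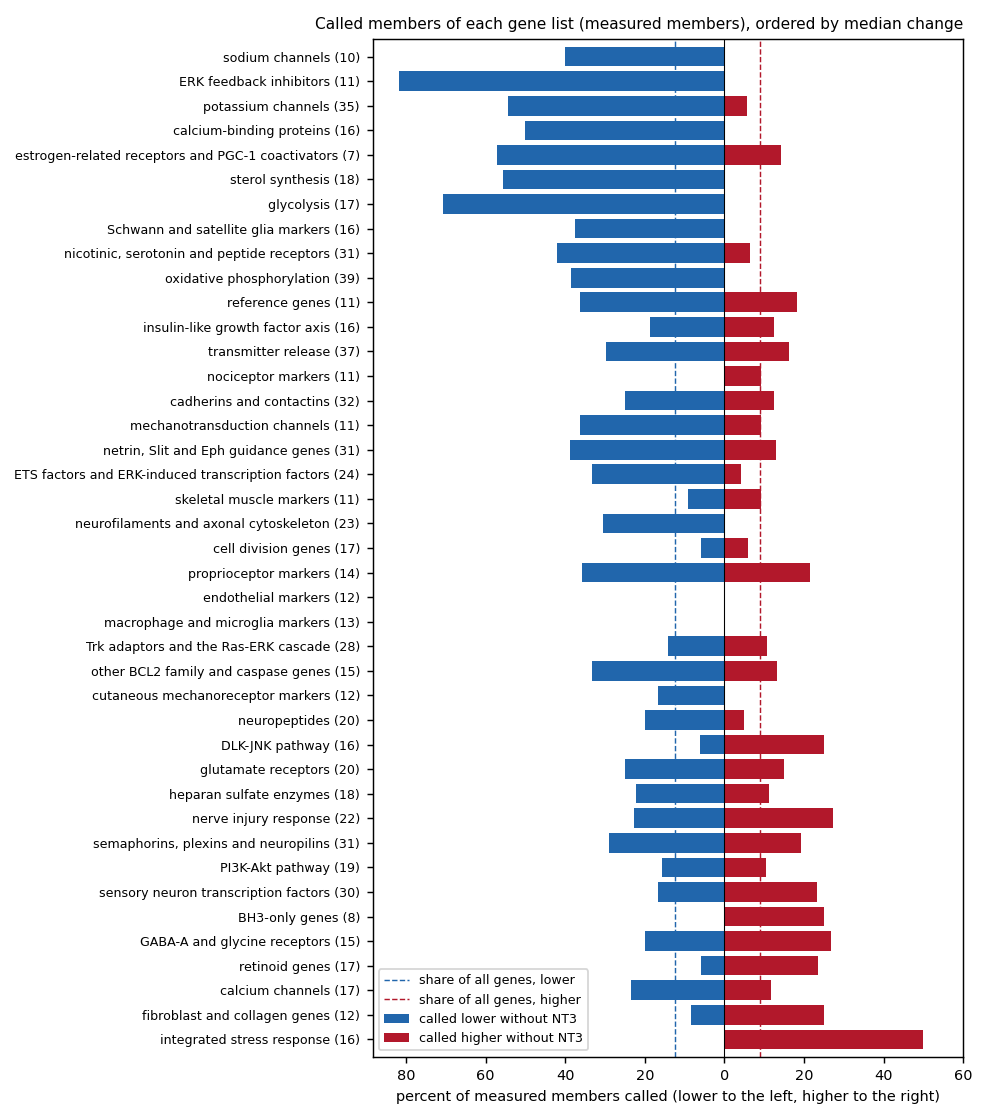
Percent of the measured members of each gene list called lower (blue, to the left) or higher (red, to the right) in NT3KO-BaxKO against BaxKO TrkC+ neurons, for lists with at least 7 measured genes given in parentheses; dashed lines are the shares of all genes, 12.5% lower and 8.89% higher. ERK feedback inhibitors and glycolysis reach furthest to the left and the integrated stress response furthest to the right, and the lists share genes in part.

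Markers of other cells that a sort of DRG could hold were compared between the 2 TrkC+ groups. A sum of values follows the brightest members of its list. Of the nociceptor markers 8 of 11 had negative log2 differences and 3 positive ones, with a median of -0.35. The median level of these members was 131 in BaxKO and 59.0 in NT3KO-BaxKO neurons. Nociceptor markers summed to 15810 to 16520 in BaxKO and 15310 to 16310 in NT3KO-BaxKO neurons, and 1 of 11 was called, the ATP receptor P2rx3 (log2 0.93), which lost its call without BaxKO replicate 1 or NT3KO-BaxKO replicate 1. Without NT3KO-BaxKO replicate 2 there was 1 nociceptor marker lower. Of 12 cutaneous mechanoreceptor markers 2 were lower, Maf and Necab2, and 0 were higher, with 1 lower without NT3KO-BaxKO replicate 1 and 1 higher without BaxKO replicate 2. The share of cutaneous markers that were lower, 16.7%, was near the 12.5% of all genes. Of 12 endothelial and 13 macrophage and microglia markers limma called 0, also 0 at an unadjusted p under 0.05. Without BaxKO replicate 2 there was 1 endothelial marker lower and without NT3KO-BaxKO replicate 2 there was 1 higher. Their sums were 774 to 920 and 472 to 515 in BaxKO against 686 to 719 and 417 to 451 in NT3KO-BaxKO neurons. Of 17 cell division genes Mcm5 was higher and Cdk1 was lower. With 1 array left out between 1 and 2 of these genes were higher and between 0 and 2 lower.

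Schwann and satellite glia markers were lower in 6 of 16, S100b, Pmp22, Sox10, Fabp7, Fbln2 and Dhh, and their sums were 14480 to 18210 in BaxKO and 6998 to 11830 in NT3KO-BaxKO neurons. Without NT3KO-BaxKO replicate 2 the glial genes called were 2. The myelin gene Mbp was not called (1584 and 1841 against 2117 and 1031). Over the glia list 13 of 16 log2 differences were negative and 3 positive, with a median of -0.73. Fibroblast and collagen genes summed to 3065 to 4194 and 11220 to 13730, and 3 of 12 were higher, Postn, Col6a1 and Col5a1, while Pdgfrb was lower. The count lower was 0 without BaxKO replicate 2 and 2 without NT3KO-BaxKO replicate 1. Most of the gap came from Postn, a secreted matrix protein, with values of 757 and 1284 against 9371 and 8328 (log2 3.16, adjusted p = 0.000116). Of the other members, Col1a1 (74.0 and 40.4 against 49.6 and 61.4), Pdgfra (45.2 and 44.1 against 42.5 and 44.4) and Lum (26 and 34.1 against 27.8 and 63.5) had low values in all 4 arrays. Over the fibroblast list 8 of 12 log2 differences were positive and 4 negative, with a median of 0.32. The part of glial RNA in the falls of S100b and the other glial genes was not tested.

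**Figure D5:**
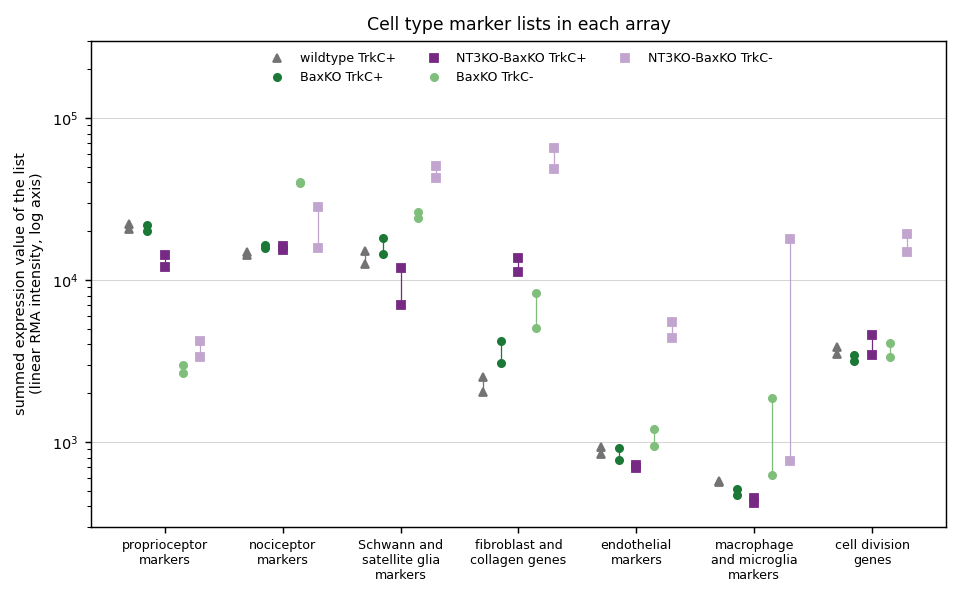
Summed expression value (linear RMA intensity, log axis) of the measured members of 7 cell type marker lists in each array; grey triangles are wildtype TrkC+, dark circles BaxKO TrkC+, dark squares NT3KO-BaxKO TrkC+, pale circles BaxKO TrkC- and pale squares NT3KO-BaxKO TrkC- arrays, 2 each. Nociceptor sums, which follow the brightest members, are alike in the TrkC+ groups, while fibroblast, endothelial and cell division sums are highest in the NT3KO-BaxKO TrkC- arrays.

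The same 2 genotypes were compared in TrkC- cells to see which changes of TrkC+ neurons differed from those outside the gate. In TrkC- cells 1851 genes (10.2%) were higher and 2792 (15.3%) were lower, and the change itself differed between the populations for 2328 genes (12.8%). The TrkC- arrays also differed in composition: fibroblast and collagen genes summed to 5042 to 8318 in BaxKO and 48390 to 65150 in NT3KO-BaxKO TrkC- cells, and cell division genes to 3337 to 4082 and 14870 to 19140. The part of these cells in the differences between populations was not tested. Without BaxKO TrkC- replicate 1 the probe sets whose change differed fell from 4348 to 2622.

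Some neuronal genes fell further in TrkC+ neurons than in TrkC- cells. Piezo2 is one of them: its values were 1159 and 992 in BaxKO and 614 and 379 in NT3KO-BaxKO TrkC- cells, and the difference between the changes was -4.56 (adjusted p = 2.58e-05). Kitl had values of 4752 and 4707 against 3599 and 2533 in TrkC- cells, and the difference between the changes was -5.47 (adjusted p = 0.000183). Outside the gate both genes thus stayed well above their NT3KO-BaxKO TrkC+ values. Htr2c allowed no such comparison, with TrkC- values of 8.2 to 16.8 in all 4 arrays.

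Other genes changed in both populations with no difference called. Hrk had values of 420 and 720 in BaxKO and of 2912 and 4606 in NT3KO-BaxKO TrkC- cells, and the changes of the 2 populations differed by 0.97 (adjusted p = 0.159). Bdnf had TrkC- values of 349 and 268 against 85.5 and 46.0 (difference -0.71, adjusted p = 0.396), and Nts of 226 and 550 against 2843 and 3572 (difference 1.61, adjusted p = 0.16). These p-values do not show that the changes were equal. Lmo2, by contrast, changed in opposite directions in the 2 populations, with TrkC- values of 283 and 428 against 2234 and 2446 and a difference of -6.51 (adjusted p = 1.08e-05).

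Wildtype TrkC+ neurons place BaxKO neurons on a scale, although that comparison shares the BaxKO arrays with the one above. Between BaxKO and wildtype TrkC+ neurons 62 genes (0.341%) and 225 probe sets were called. The probe sets were 11 or 9 without wildtype replicate 1 or 2 and 1151 without BaxKO replicate 1. Hrk, Nts and Piezo2 were among the 62. Hrk was higher in BaxKO than in wildtype neurons by 2.08 (adjusted p = 0.00965), and Nts by 2.81 (adjusted p = 0.0271), with wildtype values of 38.1 and 33.2. Piezo2 was higher by 1.49 (adjusted p = 0.0212), with wildtype values of 664 and 697, so that NT3KO-BaxKO neurons lay below both other genotypes. Pvalb, Nefh, Htr2c, Scn4b, Bdnf and Ngfr were not called between BaxKO and wildtype neurons, with wildtype values of 7764 and 7173 for Pvalb and of 9988 and 9688 for Nefh.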

How the data were processed

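RNA from about 350 sorted cells per array was amplified by in vitro transcription and hybridized to Affymetrix Mouse Genome arrays by the authors. The deposited intensity values, 1 per probe set and array, are linear and were background-corrected, normalized and summarized by the authors with RMA of the affy package in R 2.9. MAS5 calls were not used here. Their log2 was taken without a pseudocount, although the plan had assumed log2 values. After 64 controls were left out, 45037 of 45101 probe sets were tested with limma 3.58.1 (lmFit and eBayes) in R 4.3.3, fitted over 16 arrays in 8 groups with no covariates (residual degrees of freedom 8), with Benjamini-Hochberg adjustment over all probe sets. Platform annotation, which can be old, named 1 gene for 34945 probe sets, several for 932 and none for 9160. Each gene was represented by the probe set with the highest mean log2 value over the 16 arrays.

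Gene lists (46, with 774 genes measured) and the genes to be named were chosen with earlier results of these data known. Named were the 15 largest rises and falls among called genes without overlap between arrays, every member of 4 lists (neurotrophins and their receptors, ERK feedback inhibitors, BH3-only genes, proprioceptor markers), up to 5 called members of each other list with the largest change, or its 2 brightest genes, genes named by the study, and the 5 largest differences between populations in each direction. Some further called members of the lists were named after their values were seen. The motif search and the neighbours of Ntf3 used RefSeq tables.

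Alternatives were fits of the compared arrays alone, the replicate number as a block, quantile normalization, median centring, a minimum mean log2 value of 6, eBayes with trend and robust, log2 of the value plus 16, the mean over a gene's probe sets, leaving out each array, and the methods' t-test for the study's thresholds. A gene was held to be called under every alternative when its adjusted p stayed under 0.05 in all fits run for it. The fitting was tested on simulated data.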

Additional observations from a re-analysis of the deposited data

Results flagged for a closer look

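The change without NT3 differed between TrkC+ and TrkC- cells, by the interaction term of the limma fit, for 4348 probe sets. Among the named genes, those with the 5 largest positive differences (change in TrkC+ minus change in TrkC- cells, log2) were Nell1 at 7.93, St6gal2 at 6.90, Lpar3 at 6.50, 9430021M05Rik at 5.74 and Shisa6 at 5.45. The 5 largest negative ones were Bmp5 at -7.26, Scara3 at -7.23, Lox at -7.12, Lyz1 at -6.81 and Lmo2 at -6.51. Among proprioceptor markers the difference was -4.44 for Pvalb, -2.97 for Esrrg, -1.84 for Ntrk3 and -1.45 for Runx3. Esrrg and Ntrk3 were not called in TrkC+ neurons, and their TrkC- values were higher in NT3KO-BaxKO than in BaxKO mice (293 and 637 against 81.2 and 70.8 for Esrrg).

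Of the ERK feedback inhibitors, 7 differed between the populations. The difference was -4.04 for Spry1, -3.30 for Dusp6, -2.02 for Dusp4, -1.75 for Spred1 and -1.71 for Spry2, and it was positive for Spry3 at 1.84 and Spred3 at 1.82. Spry1 had TrkC- values of 98.6 and 121 in BaxKO and of 454 and 609 in NT3KO-BaxKO mice. In TrkC- cells of NT3KO-BaxKO mice the marker sums also moved, with endothelial markers at 4382 to 5478 against 950 to 1201, glia markers at 42780 to 50200 against 24110 to 26190 and nociceptor markers at 15840 to 28340 against 39470 to 40270. Macrophage markers stood at 17800 and 767 in the 2 NT3KO-BaxKO TrkC- arrays and at 626 to 1854 in BaxKO TrkC- arrays. The part of these cells in the differences was not tested.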

How the results depend on the processing

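No called gene among the 249 named changed direction under any alternative, but most alternatives could not have turned a sign. The compared arrays of called genes did not overlap, so leaving out 1 of them keeps the direction. The fit of 4 arrays, the replicate block, the minimum value and eBayes with trend and robust leave the log2 difference itself unchanged. Of the 221 named genes called, 125 were called under all alternatives. Precision is limited by 2 arrays a group. Of the 8204 probe sets in the TrkC+ comparison, 1871 were called in the fit of 4 arrays (785 higher, 1086 lower), and leaving out 1 array gave 5241 to 8447. The 5304 at the study's thresholds became 1228 with the methods' t-test, 0 after Benjamini-Hochberg adjustment, and 4747 to 6619 with 1 array left out. The 4348 probe sets that differed between populations became 1249 in the fit of 8 arrays and 2622 to 5035 with 1 array left out, and the 9775 called in TrkC- cells became 4497 and 4622 to 8961. The 225 between BaxKO and wildtype neurons ranged from 9 to 1151 with 1 array left out. The 307 list members called became 133 in the fit of 4 arrays and 211 to 290 with 1 array left out. The fits of 4 and 8 arrays also took the spread from fewer groups. The cause of these changes was not tested. Same-numbered arrays of the 2 TrkC+ groups deviated with a correlation of 0.058, which does not decide whether the numbers are pairs. Between same-numbered TrkC+ and TrkC- arrays it was 0.283 in BaxKO, 0.158 in NT3KO-BaxKO, 0.197 in wildtype and 0.0077 in mlcNT3 mice. The main fit took TrkC+ and TrkC- arrays as independent, also for the differences between populations. The numbers match the arrays of the 2 TrkC+ groups by sex, which the main fit did not model, and the replicate block gave 8503 calls.

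The genes whose sign turned were not called. Esrrg was 0.30 with the mean over its probe sets. With 1 array left out the log2 difference ran from -0.31 to 0.0030 for Bad, -0.0543 to 0.66 for Bmf, -0.55 to 0.0773 for Dusp7, -3.68 to 3.95 for Eif2s3y, -0.20 to 0.0766 for Ntf5, -0.0485 to 0.34 for Ntrk3, -1.44 to 0.0312 for Plvap, -0.11 to 0.23 for Pmaip1, -0.18 to 0.71 for Pou4f3, -1.43 to 0.0666 for Ret, -0.28 to 0.0053 for Whrn and -3.04 to 3.82 for Xist.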

Other observations

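Genes near the mutated Ntf3 locus were looked at because the groups differ by that allele. Of the 25 genes on each side of Ntf3 on chromosome 6, 19 were measured, 5 were lower and 0 were higher in NT3KO-BaxKO TrkC+ neurons, with a median log2 difference of -0.53, beside 12.5% lower, 8.89% higher and a median of -0.02 over all genes. They were Vamp1 (-2.61), the potassium channels Kcna1 (-2.46) and Kcna6 (-0.97), Tigar (-1.87, adjusted p = 3.6e-05) and Cd9 (-1.65). All but Kcna6 were also lower in TrkC- cells. The part of the allele itself in these values was not tested.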
